A study of Rattus norvegicus with 11 samples.

Results

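The genes described here make nitric oxide or carry its signal through cyclic GMP. They are the nitric oxide synthases Nos1, Nos2 and Nos3, the soluble guanylate cyclase subunits Gucy1a1 and Gucy1b1, the cyclic GMP phosphodiesterase Pde5a, the cyclic GMP-dependent kinase Prkg1, the inhibitor-clearing enzymes Ddah1 and Ddah2, and the arginase Arg1. Members were all probe sets whose symbol in the array's annotation is exactly 1 of these 10 names. This gave 11 of the 31042 probe sets tested, for 9 of the 10 genes, because none carries the symbol Prkg1. A further probe set that the annotation gives to Nos2 and the pseudogene Nos2-ps1 together falls outside the rule.

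Whole lungs of Dahl salt-sensitive rats weighing 250 to 350 g, a strain prone to hypertension on a high-salt diet, were profiled on 11 Affymetrix arrays. The normoxia group breathed room air (n = 4), the hypoxia group breathed about 9.5% oxygen (n = 4), and a further group had the same hypoxia together with SU5416, a blocker of VEGF receptors (n = 3). The series text gives vehicle to the normoxia and hypoxia groups and takes lungs at 3.5 weeks, and the lung vessels were perfused at the end. A group that also received sorafenib was not analysed here, and no group analysed had SU5416 in room air. The labels do not say that each array is a separate animal, so the p-values may measure a spread that is partly technical.

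Nitric oxide is made from arginine by the synthases and relaxes smooth muscle by switching on soluble guanylate cyclase, a dimer of an alpha and a beta subunit. The cyclic GMP that this enzyme makes activates the kinase encoded by Prkg1 and is destroyed by phosphodiesterases, of which Pde5a is the one that sildenafil blocks. In the lung this route lowers vascular tone, and its drugs are used in pulmonary hypertension. Arginase competes with the synthases for arginine, while the Ddah enzymes break down methylated arginines that inhibit them.

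Promoter sequence is shown for the member with the largest difference under SU5416 (Nos3) and the one with the largest difference under hypoxia alone (Pde5a). Each line is the 250 bases before the gene's start in RefSeq's annotation of the rat build GRCr8, printed 5′ to 3′ on the gene's own strand. Nos3 is at chr4:11706582-11706831 on the minus strand, and Pde5a at chr2:213543776-213544025 on the plus strand. Capitals mark matches on either strand to ACGTG, the core of hypoxia response elements; GCGTG, the core of xenobiotic response elements; GGGCGG, the GC box; and CACCC, a box read by Krüppel-like factors.
Nos3: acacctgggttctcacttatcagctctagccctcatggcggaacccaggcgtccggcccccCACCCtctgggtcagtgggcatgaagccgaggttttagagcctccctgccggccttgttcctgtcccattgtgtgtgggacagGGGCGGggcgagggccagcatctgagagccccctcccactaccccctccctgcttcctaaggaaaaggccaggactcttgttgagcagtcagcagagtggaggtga
Pde5a: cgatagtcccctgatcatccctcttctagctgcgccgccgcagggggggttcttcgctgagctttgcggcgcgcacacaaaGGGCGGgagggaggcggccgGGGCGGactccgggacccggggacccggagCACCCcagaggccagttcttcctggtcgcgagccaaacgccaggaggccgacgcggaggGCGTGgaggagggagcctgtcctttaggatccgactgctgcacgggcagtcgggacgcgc

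In the Nos3 window the GC box lies 106 to 101 bases and the CACCC box 189 to 185 bases before the start, and neither ACGTG nor GCGTG is found. The Pde5a window holds GC boxes 169 to 164 and 149 to 144 bases before the start, a CACCC box at 119 to 115 and GCGTG at 60 to 56. The table holds 7 of the 10 genes; Nos2, Ddah2 and Arg1 are not matched. Of these 7, GGGCGG was found in 5, CACCC in 3, GCGTG in 2 (Pde5a and Ddah1) and ACGTG in 1 (Nos1). Among all 33469 promoter windows of this length, the shares were 30.5% for GGGCGG, 49.2% for CACCC, 25.9% for GCGTG and 16.6% for ACGTG. A match is a string of letters and was not tested for binding.

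All values are log2 signals. Alveolar and airway epithelial markers (10 of 10 measured) and endothelial markers (11 of 12 measured, all but Cdh5) were all above background, 5.72 log2, in at least 1 group. The gap between the 3′ and 5′ beta-actin probe sets, a measure of RNA integrity, reached 2.24 on normoxia array 1 and 1.33 on normoxia array 2. The remaining 9 arrays had beta-actin gaps of 0.51 to 0.87. The same gap for GAPDH was also widest on normoxia arrays 1 and 2, at 0.84 and 0.64, against 0.06 to 0.52 on the remaining arrays. For hexokinase it was widest on normoxia array 2, at 3.22. On normoxia array 1 the hexokinase gap was 1.82, within the range of the remaining arrays, 1.06 to 2.44. Normoxia arrays 1 and 2 also read lower than arrays 3 and 4 for Pde5a, Ddah2, Arg1 and the dimmer probe set of each cyclase subunit, as given below. The part of RNA integrity in these values was not tested beyond the fits reported.

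No member passed the threshold in any comparison (limma, Benjamini-Hochberg adjusted p below 0.05 over all probe sets), and the endothelial synthase Nos3 stood closest to it, in hypoxia with SU5416. In hypoxia against normoxia 0 of 11 probe sets were called, against 0.00644% of all probe sets, and 0 had an unadjusted p under 0.05, against 11% of all. In hypoxia with SU5416 against normoxia 0 were called, against 0.0612%, and 2 had an unadjusted p under 0.05 (Nos3 and Arg1), against 12.4%. In hypoxia with SU5416 against hypoxia, which is also the difference between the effects of both treatments, 0 were called, against 0.0258%, and the same genes had an unadjusted p under 0.05, against 7.47%. SAM, run at the settings that the series text names, returned 1 member, Nos3, for the SU5416 group against normoxia, where it returned 1.18% of all probe sets. It returned 0 members in hypoxia (1.88% of all) and 0 between the hypoxic groups (1% of all). With the arrays of both hypoxic groups pooled as 1 group, it returned 0 members (3.08% of all).

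The arrays of both groups were separated for 0 of 11 probe sets between hypoxia and normoxia (6.13% of all probe sets), for 2 between hypoxia with SU5416 and normoxia (11.9%), and for 1 between hypoxia with SU5416 and hypoxia (11.5%). The median difference of the 11 was 0.02 in hypoxia, 0.06 in hypoxia with SU5416 and 0.13 between these groups, against −0.045, −0.038 and 0.014 over all probe sets. In each of these comparisons 7 of the 11 were higher and 4 lower, while 42.4%, 44.5% and 52.4% of all probe sets were higher. With both hypoxic groups averaged against normoxia, 6 were higher and 5 lower, and 42.5% of all were higher. The first and the second comparison share their normoxia arrays. At this number of arrays the 95% interval of a difference had a median width of 0.84 to 0.90.

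**Figure D1:**
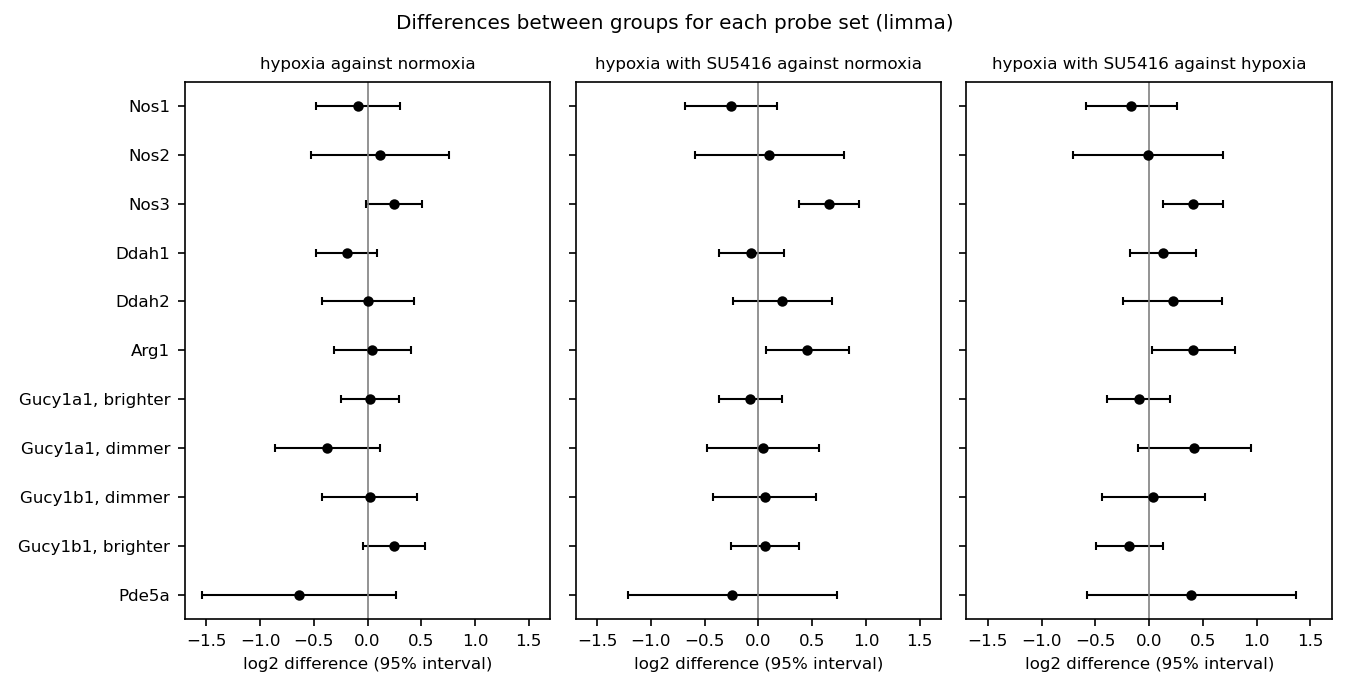
Difference of mean log2 signal for each of the 11 probe sets (points) with its unadjusted 95% interval from limma (bars), in 3 comparisons. The Nos3 interval lies above 0 in both comparisons that involve SU5416, the Arg1 interval does so more narrowly, and the Pde5a intervals are the widest.

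Among the synthases, Nos3 was higher in hypoxia with SU5416 than in either other group. This enzyme of the endothelium is the main source of nitric oxide for vascular tone. It read 7.45, 7.49, 7.42 and 7.59 on the normoxia arrays, 7.91, 7.90, 7.52 and 7.60 on the hypoxia arrays, and 8.05, 8.12 and 8.26 with SU5416. The SU5416 arrays lay above all 8 others, while hypoxia and normoxia overlapped because 1 hypoxia array fell below the highest normoxia array.

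The Nos3 difference was 0.65 (SE 0.12, 95% interval 0.38 to 0.93) between hypoxia with SU5416 and normoxia, or 1.57-fold, with a limma adjusted p of 0.1 that misses the threshold. By unadjusted p (0.000385) it ranked 115 among the 31042 probe sets. Against hypoxia alone the difference was 0.41 (interval 0.13 to 0.69, 1.33-fold, limma adjusted p = 0.501). Hypoxia against normoxia gave 0.24 (interval −0.01 to 0.50, limma adjusted p = 0.48). With both hypoxic groups averaged, 0 members were called against 0.00644% of all probe sets, Nos3 alone had an unadjusted p under 0.05 against 13.5% of all, and 0 had arrays that did not overlap against 2.45%. There Nos3 stood at 0.45 above normoxia (SE 0.10, limma adjusted p = 0.145). In the order normoxia, hypoxia, hypoxia with SU5416, only the first and the second level did not separate by array.

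The 11 measured endothelial markers did not stand higher with SU5416. Their mean was 11.72 to 12.05 on normoxia arrays, 11.86 to 11.96 on hypoxia arrays and 11.75 to 11.85 on SU5416 arrays. Of these markers 4 were higher and 7 lower in hypoxia with SU5416 against normoxia, with a median difference of −0.09 and 0 called.

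Fibroblast, erythroid and lymphocyte markers each differed in 1 direction between hypoxia with SU5416 and normoxia, with 0 called in each list (limma). Smooth muscle markers, described further below, were higher in 9 of 10 there and in 10 of 10 against hypoxia, with medians of 0.54 and 0.44. In hypoxia with SU5416 against normoxia, fibroblast and pericyte markers were higher in 9 of 9 (median 0.24), and their mean ran from 9.98 to 10.52 in normoxia, 10.14 to 10.58 in hypoxia and 10.53 to 10.63 with SU5416. Erythroid markers were higher in 4 of 4 measured of 6 (median 0.86), with means of 7.82 to 9.16, 8.76 to 9.54 and 9.06 to 9.56, and 1 of the 4 was below background. Lymphocyte markers were lower in 8 of 8 measured of 9 (median −0.51), with means of 7.63 to 8.36, 7.41 to 7.68 and 7.41 to 7.54. Neutrophil markers (6 of 8 measured) were higher in 3 and lower in 3, with a median of −0.03, and cardiac muscle markers (7 of 8 measured) were higher in 3 and lower in 4, with a median of −0.23. Between hypoxia with SU5416 and hypoxia, fibroblast and pericyte markers were higher in 7 and lower in 2 (median 0.16). In that comparison erythroid markers were higher in 4 of 4 (median 0.15), and lymphocyte markers were higher in 5 and lower in 3 (median 0.09). The part of these markers in the Nos3 values was not tested. In whole lung, a change in the number of cells of a type and a change in RNA per cell cannot be told apart. The Nos3 difference was 0.64 without normoxia arrays 1 and 2 (limma adjusted p = 0.17), so it is as large without the arrays of widest beta-actin gap.

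The neuronal synthase Nos1 differed little. It read 7.97, 7.18, 7.75 and 7.75 in normoxia, 7.57, 7.49, 7.40 and 7.84 in hypoxia, and 7.59, 7.41 and 7.23 with SU5416, and all groups overlapped. Its differences were −0.09 in hypoxia (95% interval −0.48 to 0.30) and −0.26 with SU5416 (−0.68 to 0.17), with limma adjusted p of 0.891 and 0.622.

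The inducible synthase Nos2, a product of activated macrophages and other cells under inflammatory stimuli, varied within groups rather than between them. Normoxia arrays read 7.92, 9.16, 8.30 and 8.15, hypoxia arrays 8.52, 8.27, 8.61 and 8.58, and SU5416 arrays 8.66, 8.92 and 7.87. The highest value, on normoxia array 2, and the lowest, on SU5416 array 3, lie in different groups, 1.29 apart. The difference was 0.11 in hypoxia (95% interval −0.53 to 0.75) and 0.10 with SU5416 (−0.59 to 0.79), with limma adjusted p of 0.919 and 0.924. The probe set shared with the pseudogene stood near background, at 5.80 ± 0.77 (SD, n = 4), 5.91 ± 0.47 (n = 4) and 5.47 ± 0.59 (n = 3) in the same order of groups.

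**Figure D2:**
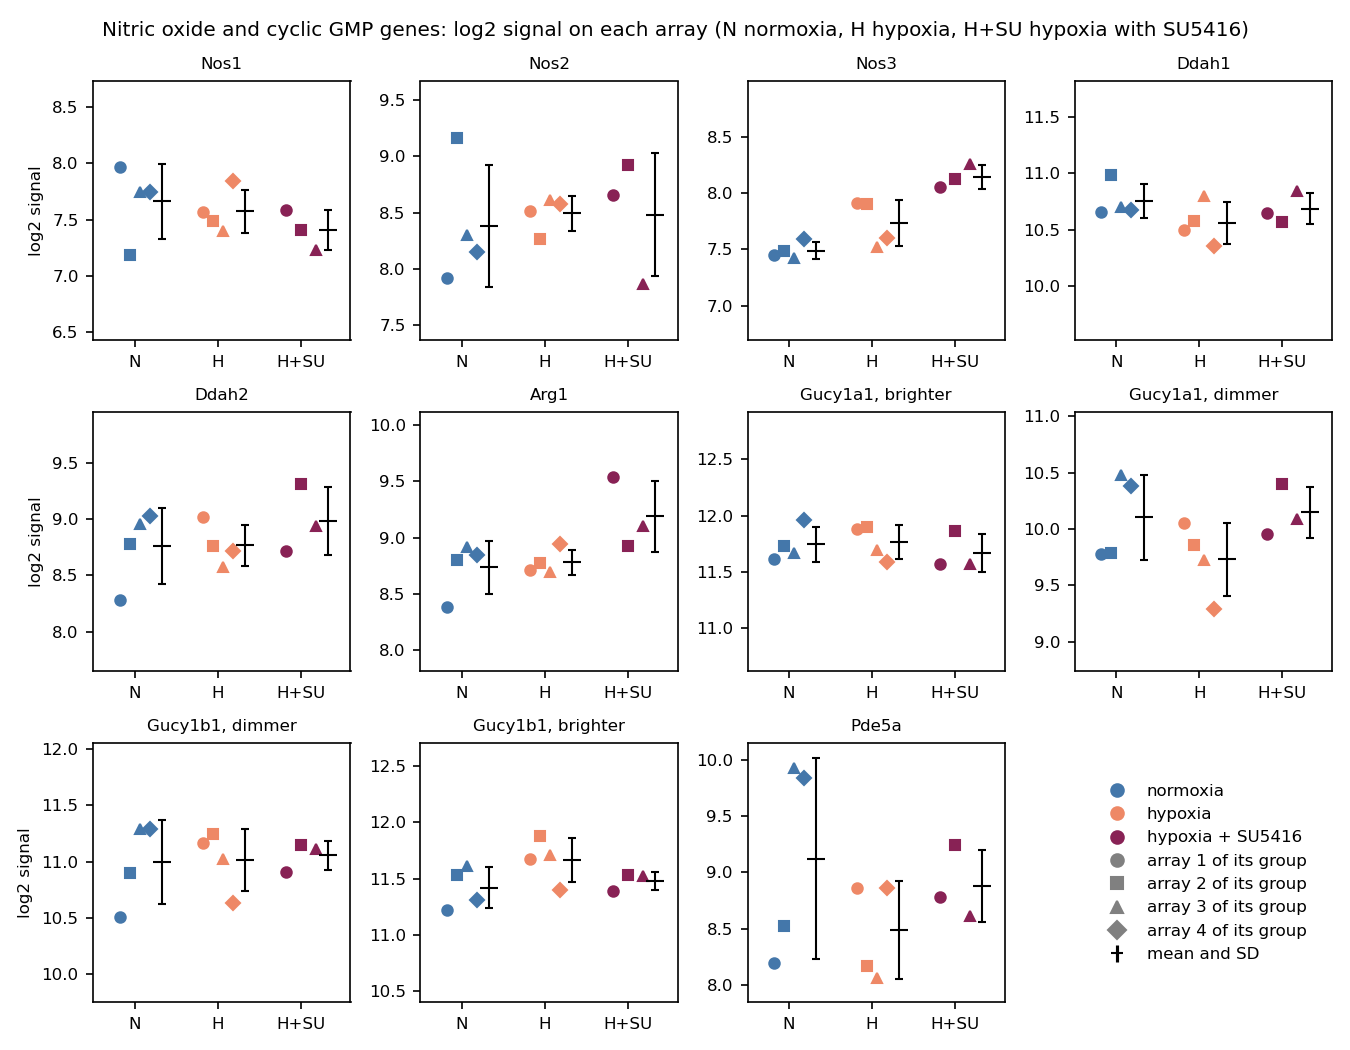
Log2 signal of each of the 11 probe sets on every array, by group, with a marker shape for the array's number and the group mean with SD beside the points; every panel spans the same number of log2 units. Nos3 is the probe set whose 3 SU5416 arrays stand above all others, and Pde5a is split within normoxia between arrays 1 and 2 and arrays 3 and 4.

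Of the genes that govern substrate and inhibitors, Arg1 was higher with SU5416. The enzyme splits arginine and is well known from alternatively activated macrophages. It read 8.38, 8.80, 8.91 and 8.84 in normoxia, 8.71, 8.77, 8.69 and 8.94 in hypoxia, and 9.54, 8.93 and 9.10 with SU5416. The SU5416 arrays lay just above all normoxia arrays, by 0.01 at the nearest pair, and overlapped with hypoxia.

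The Arg1 difference was 0.46 (SE 0.17, 95% interval 0.07 to 0.84, 1.37-fold) between hypoxia with SU5416 and normoxia, with a limma adjusted p of 0.336. Without SU5416 array 1 it was 0.28. Against hypoxia alone it was 0.41 (interval 0.02 to 0.80, limma adjusted p = 0.64), and hypoxia against normoxia gave 0.04 (−0.31 to 0.40, limma adjusted p = 0.947), which turned to −0.10 without normoxia arrays 1 and 2. The mean of the macrophage and monocyte markers (7 of 10 measured, with Itgam below background) was 8.43 to 8.94 in normoxia, 8.71 to 8.83 in hypoxia and 8.50 to 8.93 with SU5416. Within this list the markers went both ways with SU5416 against normoxia. Mrc1, a receptor of alternatively activated macrophages, was 0.62 higher (limma adjusted p = 0.216) with arrays that did not overlap, while Adgre1 differed by −0.87 (limma adjusted p = 0.105), again without overlap; both were singled out after their values were seen. The part of these markers in the Arg1 values was not tested.

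The dimethylarginine hydrolases did not separate the groups. Ddah1, which breaks down asymmetric dimethylarginine, read 10.66, 10.98, 10.70 and 10.67 in normoxia, 10.50, 10.58, 10.80 and 10.35 in hypoxia, and 10.65, 10.57 and 10.84 with SU5416. Normoxia array 2 stood apart from its group, and all groups overlapped. Its differences were −0.20 in hypoxia (95% interval −0.48 to 0.09) and −0.07 with SU5416 (−0.37 to 0.24). Ddah2, its relative in endothelial and immune cells, read 8.28, 8.78, 8.96 and 9.02 in normoxia, 9.02, 8.76, 8.58 and 8.72 in hypoxia, and 8.71, 9.31 and 8.94 with SU5416.

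For Ddah2 the difference was 0.01 in hypoxia (95% interval −0.42 to 0.43) and 0.22 with SU5416 (−0.24 to 0.68). Limma adjusted p for these genes was 0.6 and 0.883 (Ddah1) and 0.995 and 0.697 (Ddah2). Without normoxia arrays 1 and 2, the Ddah2 difference in hypoxia turned to −0.23 and that with SU5416 to −0.01.

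Soluble guanylate cyclase was measured by a pair of probe sets for each subunit. Those of the alpha subunit Gucy1a1 gave different estimates in hypoxia, with intervals that overlapped. The brighter was the steadiest of all members, with its 11 arrays between 11.57 and 11.96. It differed by 0.02 in hypoxia (95% interval −0.25 to 0.30) and −0.08 with SU5416 (−0.37 to 0.22). The dimmer read 9.78, 9.78, 10.48 and 10.38 in normoxia, 10.05, 9.86, 9.73 and 9.29 in hypoxia, and 9.96, 10.40 and 10.09 with SU5416, and all groups overlapped. Its difference was −0.37 in hypoxia (interval −0.86 to 0.11), 0.04 with SU5416 (−0.48 to 0.57) and 0.42 between these groups (−0.11 to 0.94), with limma adjusted p of 0.557, 0.959 and 0.763.

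The beta subunit Gucy1b1 carries the haem that binds nitric oxide. Its brighter probe set read 11.22, 11.53, 11.61 and 11.31 in normoxia, 11.67, 11.88, 11.71 and 11.40 in hypoxia, and 11.39, 11.53 and 11.52 with SU5416. Hypoxia was the highest group, although its lowest array fell within the normoxia range. The difference was 0.25 in hypoxia (95% interval −0.04 to 0.54) and 0.06 with SU5416 (−0.25 to 0.38), with limma adjusted p of 0.517 and 0.893. Its dimmer probe set ranged from 10.51 to 11.29, both ends being normoxia arrays, and differed by 0.02 and 0.06 (limma adjusted p = 0.981 and 0.935).

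Since the subunits work as a dimer, their levels were compared over the 11 arrays. The brighter probe sets gave a Pearson r of 0.352 (permutation p = 0.289, adjusted p = 0.379 over the 2 relations computed) and a Spearman rho of 0.388 (permutation p = 0.237). Without the 2 arrays farthest from the Gucy1a1 median r was 0.552 (permutation p = 0.125) and rho 0.681 (permutation p = 0.0489). Over deviations from the group means r was 0.352. It was 0.599 with median centring (permutation p = 0.0543) and 0.243 with quantile normalization (permutation p = 0.471). The result also depended on the probe set. With both dimmer probe sets r was 0.747 (permutation p = 0.00779), with the brighter of Gucy1a1 and the dimmer of Gucy1b1 it was 0.64 (permutation p = 0.0348), and with the dimmer of Gucy1a1 and the brighter of Gucy1b1 it was 0.0419. Both dimmer probe sets were lower on normoxia arrays 1 and 2 than on arrays 3 and 4, by means of 0.65 and 0.58, against 0.15 and 0.09 for the brighter probe sets.

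Pde5a, the phosphodiesterase that ends the cyclic GMP signal in vascular smooth muscle, had the largest difference in hypoxia and the largest spread of all members. It read 8.20, 8.52, 9.93 and 9.84 on the normoxia arrays, 8.86, 8.16, 8.06 and 8.86 on the hypoxia arrays, and 8.78, 9.24 and 8.62 with SU5416. Normoxia arrays 3 and 4 lay above every hypoxic array, and arrays 1 and 2 lay among them, a gap of 1.52 between the means of these pairs.

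The Pde5a difference was −0.64 in hypoxia against normoxia (SE 0.40, 95% interval −1.54 to 0.27, limma adjusted p = 0.592). It was −0.24 with SU5416 (−1.22 to 0.73, limma adjusted p = 0.86) and 0.39 between the hypoxic groups (−0.58 to 1.37, limma adjusted p = 0.885). Without normoxia arrays 1 and 2 the first was −1.40 (limma adjusted p = 0.0898) and the second −1.005 (limma adjusted p = 0.225). With the beta-actin gap as a covariate they were −1.02 and −0.83 (limma adjusted p = 0.219 and 0.353). Without normoxia array 3 the difference with SU5416 was 0.03. The part of RNA integrity in the Pde5a values was not tested beyond these fits.

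**Figure D3:**
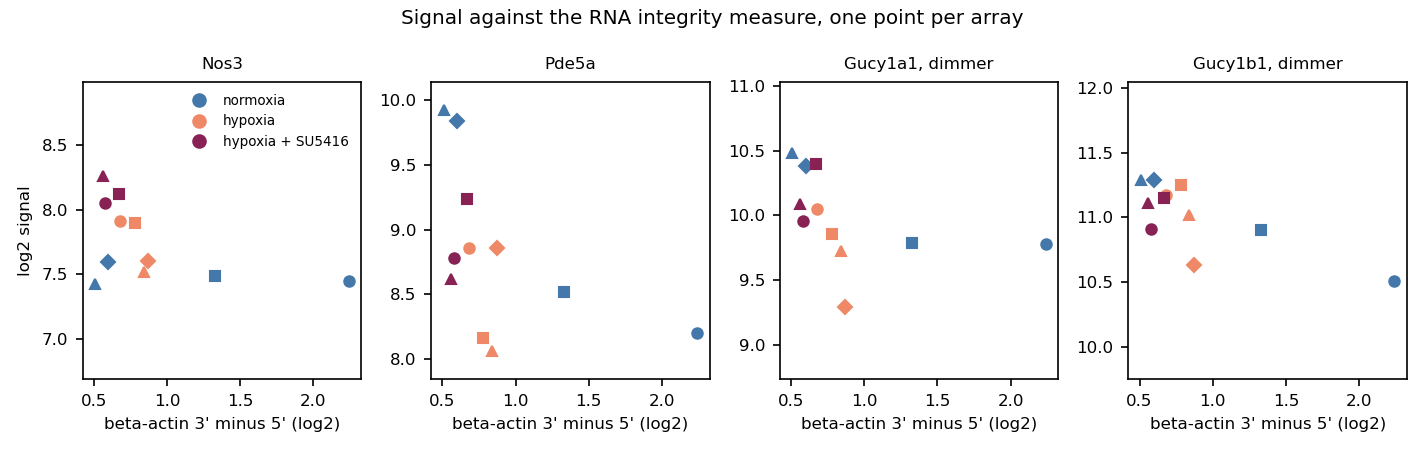
Log2 signal of 4 probe sets (vertical) against the gap between the 3′ and 5′ beta-actin probe sets in log2 (horizontal), 1 point per array, with marker shapes for the array's number as in the plot of all members. The normoxia arrays with gaps of 2.24 and 1.33 are among the lower ones for Pde5a and the dimmer probe sets of Gucy1a1 and Gucy1b1, while the 4 normoxia values of Nos3 lie together.

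Smooth muscle markers (10 of 10 measured, none below background) stood higher with SU5416, and are given here because the cyclase and Pde5a are made in these cells. Their mean was 10.08 to 10.33 on normoxia arrays and 10.71 to 10.89 on SU5416 arrays, and in hypoxia it averaged 10.39 with a highest array of 10.63. Of the 10 markers, 9 were higher with SU5416 than in normoxia (median difference 0.54, 0 called) and 10 were higher than in hypoxia (median 0.44, 0 called). The exception, Synpo2, differed by −0.39 between SU5416 and normoxia (limma adjusted p = 0.186), with arrays that did not overlap. Against hypoxia, the probe sets of Gucy1a1 stood at −0.10 and 0.42 and those of Gucy1b1 at 0.04 and −0.18, the intervals of all 4 including 0. The part of the smooth muscle markers in the values of these genes was not tested.

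Nos3 and the endothelial marker mean gave a Pearson r of −0.29 over the 11 arrays (permutation p = 0.379, adjusted p = 0.379) and a Spearman rho of −0.218 (permutation p = 0.52). Without the 2 arrays farthest from the marker median, which are normoxia arrays 1 and 2, r was 0.135, and over deviations from the group means it was 0.206. The planned relation of Pde5a with Prkg1 could not be computed. Described over the same 11 arrays, the genes whose profile was most like Nos3 were the collagen-processing Pcolce (r = 0.947), the DNA repair nuclease Apex1 (0.924) and the prolyl hydroxylase P4ha3 (0.921). For Gucy1b1 they were Cops2 (0.943), Mphosph10 (0.913) and Poll (0.896), and for Pde5a the apelin receptor Aplnr (0.981), the iron regulator Ireb2 (0.976) and Otud4 (0.973). These were picked as the highest r among named probe sets above background, on the same 11 arrays, and carry no test.

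The rest of the pathway was followed in 7 lists with 92 symbols, of which 80 were measured, each gene by its probe set of highest mean. None of the 80 was called in any comparison (limma), and 6 had an unadjusted p under 0.05 in hypoxia, 10 in hypoxia with SU5416 and 9 between the hypoxic groups, or 7.5%, 12.5% and 11.2% of them. Arrays did not overlap for 2, 9 and 14 of the 80 in these comparisons, or 2.5%, 11.2% and 17.5%, which may be read against the shares of all probe sets given above.

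The list of the other cyclic GMP kinase and kinase targets (18 of 18 measured) had medians of −0.02 in hypoxia (9 higher, 9 lower), −0.002 with SU5416 (9 higher, 9 lower) and 0.04 between these groups (13 higher, 5 lower). Prkg2, the membrane-bound relative of Prkg1 known from intestine and bone, was lower in hypoxia. It read 7.52, 7.71, 7.58 and 7.88 in normoxia, 7.05, 7.24, 6.89 and 7.0 in hypoxia, and 7.41, 7.43 and 7.26 with SU5416. The groups did not overlap in any comparison, with SU5416 between the others.

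For Prkg2 the difference was −0.63 in hypoxia (SE 0.11, 95% interval −0.88 to −0.37, limma adjusted p = 0.179), −0.30 with SU5416 (−0.58 to −0.03, limma adjusted p = 0.356) and 0.32 between the hypoxic groups (interval 0.05 to 0.60, limma adjusted p = 0.605). The smooth muscle calponin Cnn1, which is on the smooth muscle list as well, was 0.77 higher with SU5416 than in normoxia and 0.69 higher than in hypoxia. Irag1, through which the kinase restrains calcium release, was 0.34 higher than in normoxia. Limma adjusted p was 0.302, 0.616 and 0.354.

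Arginine supply (11 of 11 measured) had medians of 0.08 in hypoxia, 0.14 with SU5416 and 0.10 between these groups. Ass1, which rebuilds arginine from citrulline, was higher in hypoxia alone. It read 9.23, 9.96, 9.60 and 9.75 in normoxia, 10.37, 10.06, 10.01 and 10.28 in hypoxia, and 9.30, 9.56 and 9.58 with SU5416. The hypoxia arrays lay above all others. Its difference was 0.54 in hypoxia (95% interval 0.18 to 0.91, limma adjusted p = 0.322) and −0.70 between hypoxia with SU5416 and hypoxia (−1.09 to −0.31, limma adjusted p = 0.431). The urea cycle enzyme Otc was below background in every group.

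Partners of nitric oxide synthase (11 of 16 measured) had medians of −0.03, −0.01 and 0.04 in the same order. Nostrin, which draws the endothelial synthase away from the plasma membrane, was lower with SU5416. Its normoxia arrays read 10.94, 10.96, 11.20 and 11.22, its hypoxia arrays 10.93, 10.87, 11.17 and 11.22, and its SU5416 arrays 10.19, 10.70 and 10.58. The SU5416 arrays lay below all 8 others, the opposite side from Nos3. The difference was −0.59 against normoxia (95% interval −0.93 to −0.25, limma adjusted p = 0.182) and −0.56 against hypoxia (−0.90 to −0.21, limma adjusted p = 0.442).

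Tetrahydrobiopterin is the cofactor without which the synthases do not make nitric oxide, and 4 of 7 genes of its synthesis were measured, with medians of 0.006, 0.23 and 0.18. Qdpr, which regenerates the cofactor from its oxidised form, stood at 10.53 ± 0.12 (SD, n = 4) in normoxia, 10.52 ± 0.07 (n = 4) in hypoxia and 10.82 ± 0.10 (n = 3) with SU5416. Its differences with SU5416 were 0.29 against normoxia and 0.30 against hypoxia, with limma adjusted p of 0.31 and 0.56. Gch1, the first enzyme of the synthesis, was 0.59 higher with SU5416 than in hypoxia (95% interval −0.03 to 1.21, limma adjusted p = 0.697), and its dimmer probe set differed by 0.85. Against normoxia its arrays overlapped.

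Genes that form or break down methylated arginine (7 of 8 measured) had medians of −0.03, −0.01 and 0.16. The arginine methyltransferase Carm1 was 0.33 lower with SU5416 than in normoxia and 0.30 lower than in hypoxia, with limma adjusted p of 0.34 and 0.642, and Prmt2 was 0.27 lower than in hypoxia (limma adjusted p = 0.763). The other guanylate cyclases and natriuretic peptides (14 of 15 measured) had medians of −0.08, −0.20 and −0.09. Npr2, the receptor for C-type natriuretic peptide and itself a guanylate cyclase, stood at 10.15 ± 0.11 (n = 4), 9.96 ± 0.18 (n = 4) and 9.70 ± 0.16 (n = 3), a difference of −0.45 with SU5416 (95% interval −0.74 to −0.15, limma adjusted p = 0.222). Gucy2d was below background in every group. The other phosphodiesterases and exporters (15 of 17 measured) had medians of −0.02, 0.05 and −0.01, and in 0 of them did the arrays separate in any comparison.

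**Figure D4:**
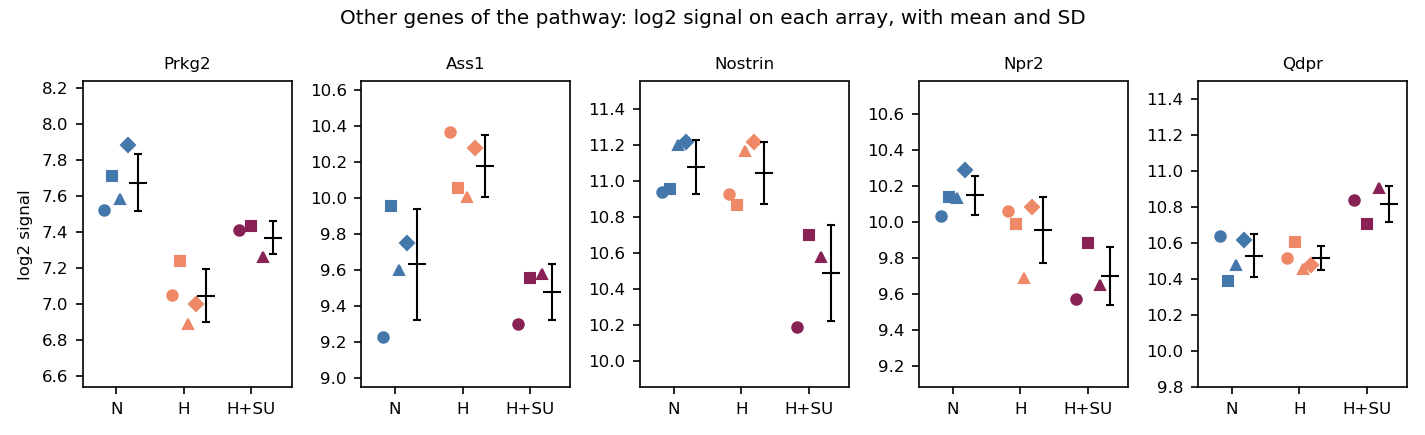
Log2 signal on each array, by group (N normoxia, H hypoxia, H+SU hypoxia with SU5416), for 5 other genes of the pathway, with the group mean and SD beside the points. Prkg2 is lowest and Ass1 highest in hypoxia alone, while Nostrin and Npr2 are lowest and Qdpr highest with SU5416.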

How the data were processed

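Biotin-labelled RNA from rat lung was hybridised to 11 Affymetrix arrays. The authors deposited 1 table of log2 signals, for which the submitters' processing notes name RMA. Its 2%-trimmed linear mean was 500.0 on every array, as after scaling to a target, while array medians ran from 7.80 to 8.01. Such a scaling, and its order relative to RMA, is not given in the sources used here. The values were used as deposited.

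Of 31099 probe sets, 57 control probe sets were left out. Genes came from the platform annotation, with 20826 probe sets for 1 gene, 436 for several and 9780 for none. Background, 5.72, was the 95th percentile of 27 Bacillus control probe sets. One mean per group was fitted over all 11 arrays with limma 3.58.1 in R 4.3.3, and p-values were adjusted by Benjamini-Hochberg over 31042 probe sets, with calls at 0.05. Correlations used 100000 permutations (two-sided). SAM was computed from its definition with a delta of 0.639 and a minimum fold of 1.4. The code was tested on simulated data. The number of arrays limits the precision.

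Members and lists were chosen with earlier results of these data known. All member probe sets are named whatever their values. From each other list and comparison, called genes and the 2 genes of smallest p whose arrays do not overlap are named. Alternatives covered normalization, filters, fit options, the replicate number as a block, the beta-actin gap, leaving out arrays, and SAM. Promoters came from RefSeq (GRCr8).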

Additional observations from a re-analysis of the deposited data

Results flagged for a closer look

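The Ddah1 value of normoxia array 2 stood apart from its group. It read 10.98, against 10.66 to 10.70 on the other normoxia arrays, and its gap to the nearest of them was 0.875 of the group's range. Among the 22 groups of 4 arrays examined this way, chance alone marks about 1 in 20.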

How the results depend on the processing

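None of the 44 member differences (11 probe sets, 4 comparisons) passed the threshold in any of 949 limma alternatives. The count of members called stayed at 0 in all of them, while SAM called 1. Of these alternatives 881 kept the direction and 68 turned it, over 19 differences. The largest of the 19 in the main fit was Pde5a with SU5416 against normoxia, at −0.24, which ran from −1.005 to 0.026. Many alternatives could not turn a direction. The signal filters, trend and robust options, the threshold of 0.1 and the fit on only the arrays compared leave a difference unchanged. So does leaving out an array of a group not compared. The count that kept the direction is therefore no measure of robustness. The Nos3 difference with SU5416 against normoxia ran from 0.60 to 0.71, with limma adjusted p from 0.0714 to 0.308, and its probe set is left out by the filter on mean signal.

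Counts over all probe sets moved more, and the cause was not tested. In hypoxia against normoxia 2 were called, but 1 with quantile normalization, median centring, only the arrays compared, or trend and robust options, 0 above the median signal, 4 with the beta-actin gap as covariate, 99 without normoxia arrays 1 and 2, 584 by SAM, and 1 to 14 leaving out 1 array (14 without hypoxia array 4, 4 without normoxia array 1). With SU5416 against normoxia 19 were called, but 43 with quantile normalization, 214 above the median signal, 62 above background, 8 with only the arrays compared, 145 with trend and robust options, 32 with array weights, 108 at 0.1, 366 by SAM, and 8 to 38 leaving out 1 array (38 without hypoxia array 4). With SU5416 against hypoxia 8 were called, but 14 with quantile normalization, 15 above background, 16 with trend and robust options, 24 with array weights, 18 at 0.1, 18 with the gap as covariate, 16 without normoxia arrays 1 and 2, 311 by SAM, and 7 to 15 leaving out 1 array. For both hypoxic groups 2 were called, but 1 with median centring, 132 above the median signal, 75 with trend and robust options, 58 at 0.1, 84 without normoxia arrays 1 and 2, 957 by SAM, and 1 to 42 leaving out 1 array (42 without hypoxia array 4).

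The replicate numbers did not pair the arrays: same-numbered arrays gave correlations of −0.125 to 0.128 and others −0.128 to 0.139. With the replicate number as a block, 1 probe set was called in hypoxia, 6 with SU5416 against normoxia, and 0 members.

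Directions turned as follows in hypoxia. The brighter Gucy1a1 was −0.021 with quantile normalization, −0.022 with the gap, −0.05 without normoxia arrays 1 and 2, and −0.022 to 0.095 leaving out 1 array. Nos1 was 0.016 with quantile normalization, 0.002 with median centring, and −0.248 to 0.015 leaving out 1. The dimmer Gucy1b1 was −0.029 with quantile normalization, −0.046 with weights, −0.161 with the gap, −0.272 without the pair, and −0.143 to 0.149 leaving out 1. Arg1 was −0.027, −0.062 and −0.1 with weights, the gap and without the pair (−0.073 to 0.104 leaving out 1), and Ddah2 −0.082, −0.149 and −0.225 (−0.154 to 0.093). Nos2 ran from −0.042 to 0.371 leaving out 1.

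With SU5416 against normoxia, the dimmer Gucy1b1 was −0.033, −0.213 and −0.233 with weights, the gap and without the pair (−0.103 to 0.157 leaving out 1), and the dimmer Gucy1a1 −0.049, −0.204 and −0.281 (−0.082 to 0.168). Ddah2 was −0.007 with the gap and −0.006 without the pair, the brighter Gucy1b1 −0.018 with the gap (−0.003 to 0.127), and Ddah1 0.002 without the pair (−0.143 to 0.01). Leaving out 1 array gave −0.118 to 0.407 for Nos2 and −0.551 to 0.026 for Pde5a.

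Against hypoxia, the dimmer Gucy1b1 was −0.002 with centring and −0.052 with the gap (−0.09 to 0.117), and Nos2 −0.23 to 0.295. For both hypoxic groups, the dimmer Gucy1b1 was −0.004 with quantile normalization, −0.04 with weights, −0.187 with the gap and −0.253 without the pair (−0.123 to 0.137), the brighter Gucy1a1 0.043 with centring (−0.075 to 0.046), Ddah2 −0.078 with the gap and −0.115 without the pair (−0.044 to 0.202), and Nos2 −0.048 to 0.366.

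The Nos3 correlation with endothelial markers turned to 0.0586 with median centring, 0.135 without normoxia arrays 1 and 2 and 0.206 over deviations from group means. That of the cyclase subunits was 0.64 and 0.747 with other probe sets. The pooled comparison uses all arrays, so no fit on only the arrays compared was made for it.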
